A study of Mus musculus with 11 samples.

Results

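DNA transposon copies, relics of transposable elements (TEs) that no longer move in the mouse genome, were described across 4 genotypes. They were taken from the deposited table of single TE copies as every row whose class field is DNA and whose value is above 0 TPM (a level per length, relative to all TE copies of a library) in at least 1 of 11 libraries. This gave 23249 of the 163077 DNA copies in the table, in 13 families, beside 578629 TE copies of all classes above 0 TPM and 3725827 TE copies in the table. The share of copies above 0 TPM was 14.3% for the DNA class, 10.2% for LINE, 20.9% for SINE and 13.1% for LTR copies. The same elements are summed by sequence type into 188 DNA subfamilies in the count tables that pair the genotypes.

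The study sequenced polyadenylated RNA from the testes of mice at P5 (day 5 after birth) to ask whether the transcription factor NRF1 drives retrotransposons that have lost DNA methylation. The groups were WT (n = 2), Dnmt3C KO (Dnmt3C KO/KO, n = 3), Nrf1 cKO (n = 3) and dKO (both mutations, n = 3), all bred onto C57Bl6/J. The Nrf1 cKO and dKO mice carried 1 floxed and 1 deleted Nrf1 allele (fl/KO, written Nrf1 KO/KO in the labels) with Ddx4-Cre, also called Vasa-Cre, a driver meant to recombine Nrf1 in germ cells only, so the somatic cells of the testis keep the floxed allele. The sample titles speak of germ cells, whereas the tissue and extraction notes name dissected whole testis with its somatic cells. The labels do not say which Cre or floxed alleles the wild-type littermates carried, nor that each library is 1 animal, so p-values measure only the spread between these samples.

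DNA transposons move by cut and paste: a transposase binds the terminal inverted repeats, the mirrored sequences at both ends of the element, and moves the DNA itself without an RNA copy. Those of the mouse lost this ability long ago, and what is left are short, mutated copies, many of them inside introns, where a transcript of the host gene can carry them. DNMT3C, the rodent methyltransferase of the male germline, is known for methylating promoters of young LINE1 and ERVK retrotransposons. NRF1 binds a CG-rich motif and is blocked by its methylation.

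The following sequences are examples of copies that the annotation names as DNA transposons. They were read from GENCODE M21 transcripts on GRCm38 that have no coding sequence and are printed 5′ to 3′ on the strand of the element. In the first pair, capitals mark bases among the outer 16 of each end that can pair with the other end. In the third, capitals mark CpG dinucleotides, the target of DNA methylation.
URR1A_dup7875: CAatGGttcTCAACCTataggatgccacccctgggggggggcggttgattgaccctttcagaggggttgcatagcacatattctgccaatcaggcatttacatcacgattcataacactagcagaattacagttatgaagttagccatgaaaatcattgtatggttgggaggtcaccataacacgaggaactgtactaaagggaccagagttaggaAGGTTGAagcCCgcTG
MER5A_dup3234: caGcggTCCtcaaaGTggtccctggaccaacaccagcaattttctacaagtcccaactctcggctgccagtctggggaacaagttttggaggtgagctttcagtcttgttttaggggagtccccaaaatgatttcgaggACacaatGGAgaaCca
FordPrefect_dup264: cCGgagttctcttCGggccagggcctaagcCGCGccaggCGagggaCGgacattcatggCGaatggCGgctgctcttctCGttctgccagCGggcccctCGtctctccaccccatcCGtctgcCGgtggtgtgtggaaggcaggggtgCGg
URR1A_dup7875 (chr8:120685569-120685800, minus strand, opposite to an exon of Gm33142) is a copy of the most abundant subfamily, and 11 of its 16 end bases can pair; it was above 0 TPM in 1 library. MER5A_dup3234 (chr7:35053437-35053591, plus strand, opposite to an exon of Gm45094) has 6 of 16, as many as the FordPrefect_dup264 stretch, which is not a whole copy, and was above 0 TPM in all 11 libraries, at 1.54 to 12.9 TPM. FordPrefect_dup264 (the 151 bases at chr17:39843013-39843163, plus strand, that lie in an exon of the lincRNA gene Gm26917) is the DNA copy that was called under 2 of the alternatives tried. Its stretch has 14 CpG and 68.2% G and C, against 4 CpG and 47.0% in URR1A_dup7875 and 3 CpG and 50.3% in MER5A_dup3234.

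The libraries, each of 1 genotype, held 26063590 to 39365841 counts over genes and TE subfamilies, of which 14027 to 36117 were in DNA subfamilies. Nrf1 was at 57.5 ± 0.71 CPM (counts scaled to library size; SD, n = 2) in WT and 55.4 ± 2.91 CPM (SD, n = 3) in Nrf1 cKO, and Dnmt3c at 4.51 ± 0.50 in WT and 3.79 ± 0.75 CPM in Dnmt3C KO, so whole-gene counts in whole testis did not separate the genotypes. All 30 germ cell markers were found, and their summed level was 674.8 to 776.5 CPM in WT, 642.4 to 1035 CPM in Dnmt3C KO, 231.7 to 500.1 CPM in Nrf1 cKO and 304.5 to 658.0 CPM in dKO. These levels were below WT in every Nrf1 cKO and dKO library, and their mean log2 CPM was 2.51 in Nrf1 cKO and 3.18 in dKO. They stand beside each comparison of Nrf1 cKO or dKO below, dKO over Nrf1 cKO included; their part in it was not tested, and in such bulk samples fewer cells of a type and less RNA per cell cannot be told apart. The 12 Sertoli cell markers summed to 4469 to 4601 CPM in WT and 5205 to 8229 CPM in Nrf1 cKO, and were above WT also in Dnmt3C KO (4617 to 5984 CPM) and dKO (5402 to 5977 CPM). The 8 macrophage markers summed to 123.2 to 135.3 CPM in WT, 139.4 to 195.9 CPM in Dnmt3C KO, 123.7 to 189.7 CPM in Nrf1 cKO and 77.46 to 181.2 CPM in dKO. The ranges of summed Leydig, peritubular and endothelial markers overlapped WT in every mutant group. The 7 red blood cell markers summed to 660.5 and 2160 CPM in WT, 546.1 to 791.1 CPM in Dnmt3C KO, 310.1 to 1776 CPM in Nrf1 cKO and 261.7 to 790.5 CPM in dKO, with WT replicate 2 and Nrf1 cKO replicate 2 far above the others. The part of these markers in the comparisons with WT was not tested either, and no marker of any list was at 0 in a whole group.

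DNA transposon reads were a small share of each library, and on average the highest in WT. The WT libraries had 0.101% and 0.0812% of all counts in DNA subfamilies. Those of Dnmt3C KO had 0.0809%, 0.0558% and 0.0666%, those of Nrf1 cKO had 0.0416%, 0.0610% and 0.0721%, and those of dKO had 0.0910%, 0.0600% and 0.0761%. Both WT libraries lay above all Dnmt3C KO and Nrf1 cKO libraries, by little for the lower WT library, and dKO overlapped every other group. Over both backgrounds of the other gene, the share was 0.836-fold in Nrf1-mutant against Nrf1-intact libraries (log2 difference -0.26, two-sided exact permutation test within backgrounds, p = 0.345, adjusted p = 0.75 over 10 tests). Without Nrf1 cKO replicate 1 this difference was -0.15. The same test for Dnmt3C gave 0.987-fold (log2 difference -0.02, exact permutation p = 0.93, adjusted p = 0.93). The Nrf1 difference was -0.67 against WT and 0.16 against Dnmt3C KO, and the Dnmt3C difference was -0.43 against WT and 0.40 against Nrf1 cKO, on the log2 scale.

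Relative to all TE reads, the share of the DNA class differed less between genotypes. In WT, DNA subfamilies made up 3.28% and 2.79% of TE counts. Their share was 2.91%, 2.54% and 2.60% for Dnmt3C KO, 2.60%, 2.76% and 2.98% for Nrf1 cKO and 2.96%, 2.21% and 3.15% for dKO. The lowest and the highest mutant share were both dKO libraries, and each mutant group overlapped WT. The log2 difference was -0.04 for Nrf1 (exact permutation p = 0.665, adjusted p = 0.767) and -0.10 for Dnmt3C (exact permutation p = 0.38, adjusted p = 0.75). Across the 11 libraries the coefficient of variation was 23.6% for the share of all counts but 10.9% for the share of TE counts.

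**Figure D1:**
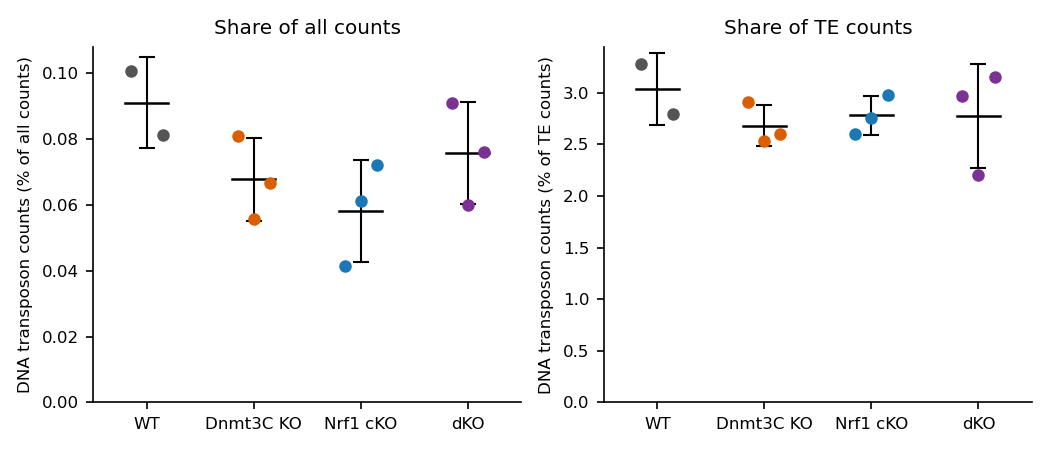
Share of DNA transposon counts in all counts (left, %) and in TE counts (right, %) by genotype; points are libraries, horizontal lines means and error bars SD. The share of all counts runs from 0.0416% to 0.101%, whereas the share of TE counts stays between 2.21% and 3.28%.

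Set against each retrotransposon class, DNA counts were 16.2% to 24.1% of LINE counts, 4.39% to 6.97% of SINE counts and 6.81% to 10.8% of LTR counts over the 11 libraries. The ratio to LTR counts, the class that holds the ERVK elements, was lower in every mutant library than in WT: 10.2 ± 0.85% in WT (SD, n = 2), 7.94 ± 0.43% in Dnmt3C KO, 7.78 ± 0.84% in Nrf1 cKO and 8.44 ± 1.36% in dKO (SD, n = 3 each). Both WT values, 9.61% and 10.8%, were above all 9.38% or lower values of the mutants. Its log2 difference was -0.16 for Nrf1 (exact permutation p = 0.26) and -0.13 for Dnmt3C (exact permutation p = 0.355), with an adjusted p of 0.75 for both. Without dKO replicate 2 these differences were -0.09 and -0.06, and without WT replicate 1 that for Dnmt3C was -0.08. The ratio to SINE counts differed by 0.05 and -0.10 (exact permutation p = 0.69 and 0.455) and the ratio to LINE counts by -0.09 and -0.07 (exact permutation p = 0.445 and 0.525), for Nrf1 and Dnmt3C in that order.

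At the level of subfamilies, DNA elements were lower in each mutant than in WT as a class, by their estimates, while no single one passed the test. With edgeR's quasi-likelihood test and an adjusted p under 0.01 over all genes and TE subfamilies, 0 DNA subfamilies were called in each of 7 fits. Of all features tested, 0% were called in each of the 5 pairs of genotypes, and 0.00443% (1 of 22594) in the Nrf1 effect and 0.00443% (1 of 22594) in the Dnmt3C effect over all 11 libraries. DESeq2 also called 0 DNA subfamilies in all 7, where it called 0.1% of all features with an adjusted p in Dnmt3C KO over WT, 0.108% in Nrf1 cKO over WT, 0.012% in dKO over WT, 0.0241% in dKO over Nrf1 cKO, 0.0704% in dKO over Dnmt3C KO, 0.156% in the Nrf1 effect and 0.073% in the Dnmt3C effect. It gave no adjusted p for 0 to 21 DNA subfamilies per fit. In Nrf1 cKO over WT, 135 of 146 DNA subfamilies tested had a lower estimate, with a median log2 fold change of -0.62. At an unadjusted p under 0.05, 37 were lower and 0 higher, where 4.22% and 1.53% of all features were. In Dnmt3C KO over WT, 135 of 151 had a lower estimate, with a median of -0.44, and 22 were lower and 1 higher at an unadjusted p under 0.05 (2.86% and 2.56% of all features). In dKO over WT the median was -0.23, with 124 of 153 estimates lower, and 3 were lower and 1 higher at an unadjusted p under 0.05 (1.19% and 0.544% of all features). Since these 3 comparisons share the same 2 WT libraries, their directions are not independent. Without WT replicate 1 the medians were -0.44 in Nrf1 cKO, -0.27 in Dnmt3C KO and -0.09 in dKO. The dKO median was also -0.12 without dKO replicate 2, and -0.39 without WT replicate 2 or without dKO replicate 1.

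Comparisons without the WT libraries had medians above 0. DNA subfamilies had a median log2 fold change of 0.35 in dKO over Nrf1 cKO, with 118 of 134 estimates higher, and 0 were lower and 4 higher at an unadjusted p under 0.05 (0.868% and 1.94% of all features). In dKO over Dnmt3C KO the median was 0.17, with 104 of 142 estimates higher, and 0 were lower and 1 higher (4.08% and 3.1% of all features). The median in dKO over Nrf1 cKO was 0.19 without Nrf1 cKO replicate 1, 0.57 without Nrf1 cKO replicate 3 and 0.20 without dKO replicate 1. That of dKO over Dnmt3C KO was 0.34 when Dnmt3C KO replicate 1 was left out and 0.06 when its replicate 2 was. It was -0.004 when dKO replicate 1 was left out and 0.32 when dKO replicate 2 was. In the fits over both backgrounds, the median was -0.20 for the Nrf1 effect, with 127 of 157 estimates lower, and 3 were lower and 0 higher at an unadjusted p under 0.05 (4.32% and 3.55% of all features). The Nrf1 median was -0.06 without WT replicate 1 and -0.08 without Nrf1 cKO replicate 1, but -0.31 when Dnmt3C KO replicate 2 and -0.30 when dKO replicate 1 was left out. For the Dnmt3C effect the median was -0.02, with 85 of 157 estimates lower, and 0 were lower and 1 higher (0.996% and 1.9% of all features).

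Retrotransposon subfamilies had medians close to that of the DNA class, and genes had medians near 0, which the scaling sets, since TMM centres on features of which most are genes. In Nrf1 cKO over WT the medians were -0.62 for LINE, -0.61 for SINE and -0.50 for LTR subfamilies beside -0.62 for DNA and 0.02 for genes. In Dnmt3C KO over WT they were -0.41, -0.38 and -0.29 beside -0.44 for DNA and 0.01 for genes, in the same order. In dKO over Nrf1 cKO they were 0.38, 0.35 and 0.31 beside 0.35 for DNA and -0.02 for genes. Scaled to the TE total in place of all counts, the DNA median went from -0.62 to -0.13 in Nrf1 cKO over WT and from 0.35 to -0.02 in dKO over Nrf1 cKO. It went from -0.44 to -0.18 in Dnmt3C KO over WT, from -0.23 to -0.12 in dKO over WT, from 0.17 to 0.04 in dKO over Dnmt3C KO, from -0.20 to -0.06 in the Nrf1 effect and from -0.02 to -0.11 in the Dnmt3C effect.

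**Figure D2:**
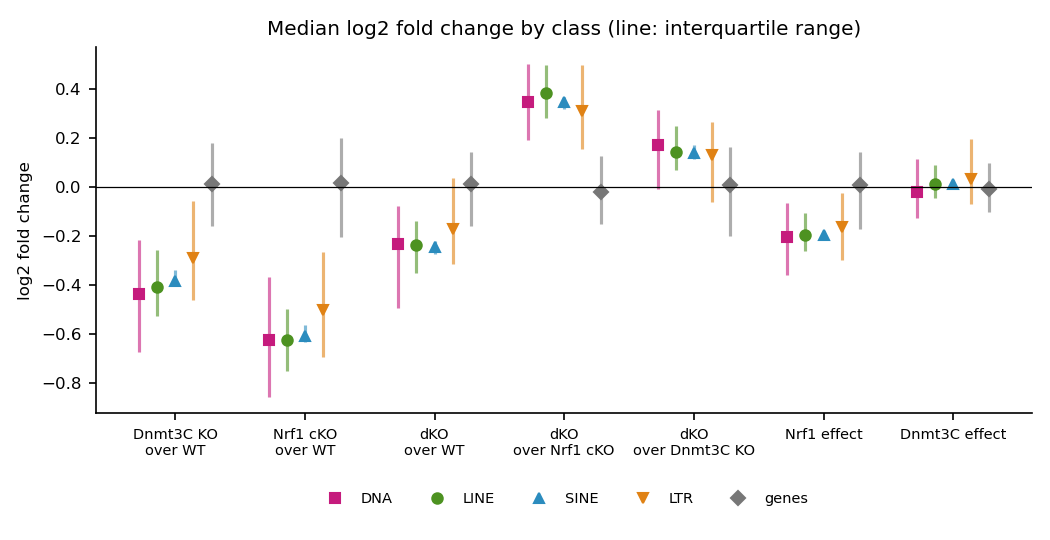
Median log2 fold change of DNA, LINE, SINE and LTR subfamilies and of genes (vertical axis) in the 5 pairs of genotypes and the 2 effects; vertical lines span the interquartile range over features. In Nrf1 cKO over WT the DNA median of -0.62 lies beside -0.62 for LINE and -0.61 for SINE, and genes stay at 0.02.

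How often the groups of libraries did not overlap differed between the pairs. CPM values of all 3 Nrf1 cKO libraries were below both WT libraries for 77 of 146 DNA subfamilies, where 11.6% of all features tested showed this. Those of Dnmt3C KO were below WT for 62 of 151 (11.5% of all features), and those of dKO for 34 of 153 (6.76%). All dKO libraries were above all Nrf1 cKO libraries for 14 of 134 DNA subfamilies (4.14% of all features). Against Dnmt3C KO they were above for 8 and below for 4 of 142, where 6.7% and 6.9% of all features were.

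The 10 most abundant of the 188 DNA subfamilies held 57.2% of the mean DNA level, and the median subfamily was at 0.83 CPM. URR1A and URR1B, rodent repeats of the hAT-Charlie family, led. URR1A was at 149.7 and 129.2 CPM in WT, 116.9, 79.89 and 104.3 CPM in Dnmt3C KO, 70.1, 98.9 and 112.3 CPM in Nrf1 cKO, and 135.5, 96.95 and 126.8 CPM in dKO. Both WT libraries were above all libraries of the single mutants and overlapped dKO. URR1B was at 141.4 and 116.0 CPM in WT, 107.8, 75.49 and 91.78 CPM in Dnmt3C KO, 60.5, 81.9 and 106.4 CPM in Nrf1 cKO, and 118.3, 83.95 and 101.6 CPM in dKO, in the same order of groups. In Nrf1 cKO over WT the log2 fold change was -0.58 (SE 0.22) for URR1A and -0.65 (SE 0.24) for URR1B, with edgeR adjusted p of 0.837 and 0.833.

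The next 8 subfamilies averaged 15.57 to 38.49 CPM. MER2, a member of the TcMar-Tigger family, stood at 48.6 ± 8.08 CPM in WT (SD, n = 2) and 31.9 ± 9.88 CPM in Nrf1 cKO (SD, n = 3), a log2 fold change of -0.62 (SE 0.26, edgeR adjusted p = 0.851). MER20, MER5A, MER5B, Tigger7, RCHARR1, Charlie1a and MER3 had log2 fold changes from -0.78 (Charlie1a) to -0.50 (MER3) in Nrf1 cKO over WT and from -0.47 (Tigger7) to -0.34 (MER20) in Dnmt3C KO over WT. Of these, MER3 overlapped WT in both comparisons, and MER20, MER5A and MER5B overlapped it in Dnmt3C KO. Over both backgrounds their Nrf1 effect lay between -0.29 (RCHARR1) and -0.12 (MER3).

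The smallest p of the Nrf1 effect belonged to 3 rarer subfamilies, none past the threshold. Charlie1b (hAT-Charlie) had a log2 difference of -0.47 (SE 0.19, edgeR adjusted p = 0.589), at 4.43 and 5.32 CPM for WT, 4.63, 3.76 and 3.91 for Dnmt3C KO, 2.338, 2.885 and 3.64 for Nrf1 cKO and 4.22, 2.966 and 2.995 CPM for dKO. Tigger16a (TcMar-Tigger) had -0.76 (SE 0.31, edgeR adjusted p = 0.589) and MER104 (TcMar-Tc2) -0.68 (SE 0.30, edgeR adjusted p = 0.606). For the Dnmt3C effect the smallest p belonged to FordPrefect (hAT-Tip100), which had a log2 difference of 0.77 (SE 0.25, edgeR adjusted p = 1), DNA1_Mam (TcMar) with -1.21 (SE 0.58) and Arthur1C (hAT-Tip100) with 0.81 (SE 0.40), both also at an edgeR adjusted p of 1. DNA1_Mam and Arthur1C averaged 0.16 and 0.34 CPM, so few reads lie behind them.

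Over WT, FordPrefect had estimates opposite in sign to the class median, and 1 copy made up most of it. The subfamily was at 4.97 and 4.42 CPM in WT, 8.65, 10.5 and 6.99 CPM in Dnmt3C KO, 3.22, 10.3 and 7.74 CPM in Nrf1 cKO and 8.83, 11.1 and 13.97 CPM in dKO. All Dnmt3C KO and dKO libraries were above WT, while Nrf1 cKO spread from below WT to above it. Its log2 fold change over WT was 0.90 (SE 0.26) in Dnmt3C KO, 0.59 (SE 0.43) in Nrf1 cKO and 1.26 (SE 0.27) in dKO, with edgeR adjusted p of 0.788, 0.961 and 1.00. Between mutants it had the sign of the class, at 0.67 (SE 0.37) in dKO over Nrf1 cKO and 0.37 (SE 0.22) in dKO over Dnmt3C KO, with edgeR adjusted p of 1.00 and 0.691. FordPrefect_dup264 gave 78.7% to 96.3% of the subfamily's reads per library.

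That copy was counted at 4.02 and 3.51 RPM (reads scaled to all counts of a library) for WT, 8.08, 9.88 and 6.10 for Dnmt3C KO, 2.73, 9.72 and 7.33 for Nrf1 cKO and 8.34, 10.4 and 12.99 RPM for dKO. Again every library without Dnmt3C was above WT, and 1 Nrf1 cKO library was below it. All other FordPrefect copies together were at 0.98 ± 0.15 RPM in WT (SD, n = 2), 0.78 ± 0.16 in Dnmt3C KO, 0.38 ± 0.07 in Nrf1 cKO and 0.59 ± 0.10 in dKO (SD, n = 3 each), highest in WT as the DNA class was on average. In TPM, relative to TE copies, FordPrefect_dup264 was at 142.9 ± 3.54 in WT (SD, n = 2), 398.4 ± 142.3 in Dnmt3C KO, 374.7 ± 157.4 in Nrf1 cKO and 486.0 ± 167.2 in dKO (SD, n = 3 each), and its Dnmt3C effect on the log2(TPM + 1) scale was 0.85 (SE 0.18, limma adjusted p = 0.132), short of the threshold. It was called when either of 2 libraries was left out: the adjusted p by limma was 0.00278 without Nrf1 cKO replicate 2 and 0.00501 without dKO replicate 1. In those fits, 20 of 246000 and 16 of 239328 TE copies of all classes were called. The whole copy spans chr17:39842998-39843163, and RefSeq (GRCm38.p6) places the ribosomal RNA pseudogene Rn18s-rs5 at chr17:39846354-39848202, beginning 3191 bases past its end. Whether reads of ribosomal RNA enter this copy, or the copy is itself part of a ribosomal sequence, was not tested.

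**Figure D3:**
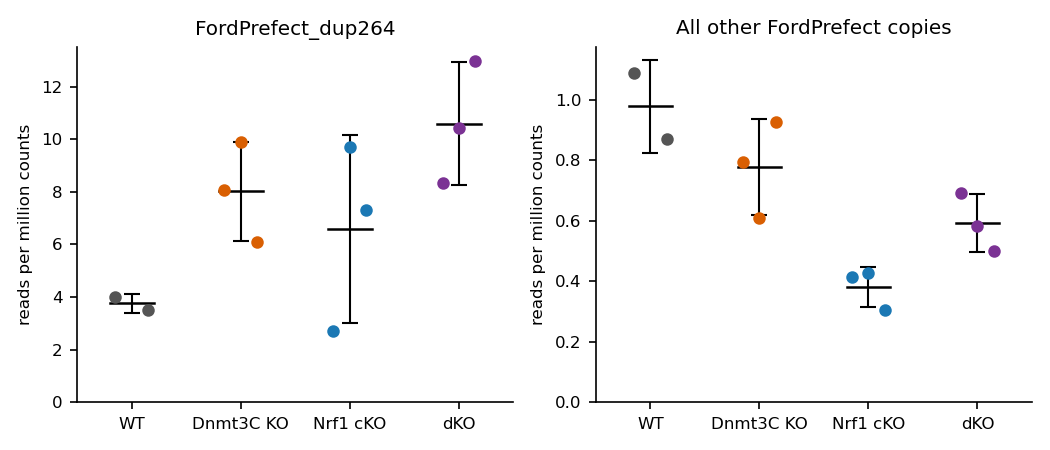
RPM (reads scaled to all counts of a library) of FordPrefect_dup264 (left) and of all other FordPrefect copies (right) by genotype; points are libraries, horizontal lines means and error bars SD. The single copy is at 3.51 and 4.02 in WT and at 6.10 to 12.99 in Dnmt3C KO and dKO, whereas the other copies are highest in WT.

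By family, hAT-Charlie copies held 72.7% of the DNA signal in TPM, TcMar-Tigger 17.7%, hAT-Tip100 4.06% and hAT-Blackjack 2.39%. The remaining 9 families each held under 1%. hAT-Charlie, with 15903 of 105698 copies above 0, summed to 30670 and 26720 TPM for WT, 29410, 26480 and 26160 for Dnmt3C KO, 28960, 27830 and 30790 for Nrf1 cKO and 29290, 23630 and 32000 TPM for dKO. TcMar-Tigger, with 4917 of 35122 copies, summed to 7614 and 7036 TPM for WT, 6768, 6253 and 6860 for Dnmt3C KO, 6221, 6892 and 7312 for Nrf1 cKO and 7458, 5557 and 7955 TPM for dKO. In both families the dKO libraries spanned the values of all other libraries.

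Since TPM is relative to the TE total, these sums show which families differed from TEs in general, and no family did so at an adjusted p under 0.05 over 26 tests. The smallest p was that of TcMar-Tc2 for Nrf1, with a log2 difference of -0.36 (exact permutation p = 0.045, adjusted p = 0.8335). It summed to 229.5 ± 37.6 TPM in WT (SD, n = 2), 227.3 ± 26.03 in Dnmt3C KO, 157.9 ± 42.1 in Nrf1 cKO and 202.7 ± 17.9 TPM in dKO (SD, n = 3 each). hAT-Blackjack differed by -0.19 for Dnmt3C (exact permutation p = 0.085, adjusted p = 0.8335), at 984.3 and 862.9 TPM for WT, 897.9, 905.7 and 887.6 for Dnmt3C KO, 981.4, 1022 and 1168 for Nrf1 cKO and 981.1, 648.2 and 924.0 TPM for dKO. PiggyBac and TcMar, at 30.6 and 34.8 TPM on average, differed by -0.58 and -0.53 for Dnmt3C with exact permutation p of 0.135 and 0.165. hAT-Tip100, of which FordPrefect_dup264 made up 23.3%, differed by 0.18 for Nrf1 and 0.08 for Dnmt3C.

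The other families were small. The family named DNA averaged 264.4 TPM, hAT 269.5, TcMar-Mariner 239.9, MuDR 113.4, MULE-MuDR 86.2 and TcMar-Pogo 1.40 TPM, the last with 2 of 21 copies above 0. Their log2 differences lay between -0.20 and 0.53 for Dnmt3C and between -0.11 and 0.36 for Nrf1, with adjusted p of 0.8335 or more by the exact permutation test.

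**Figure D4:**
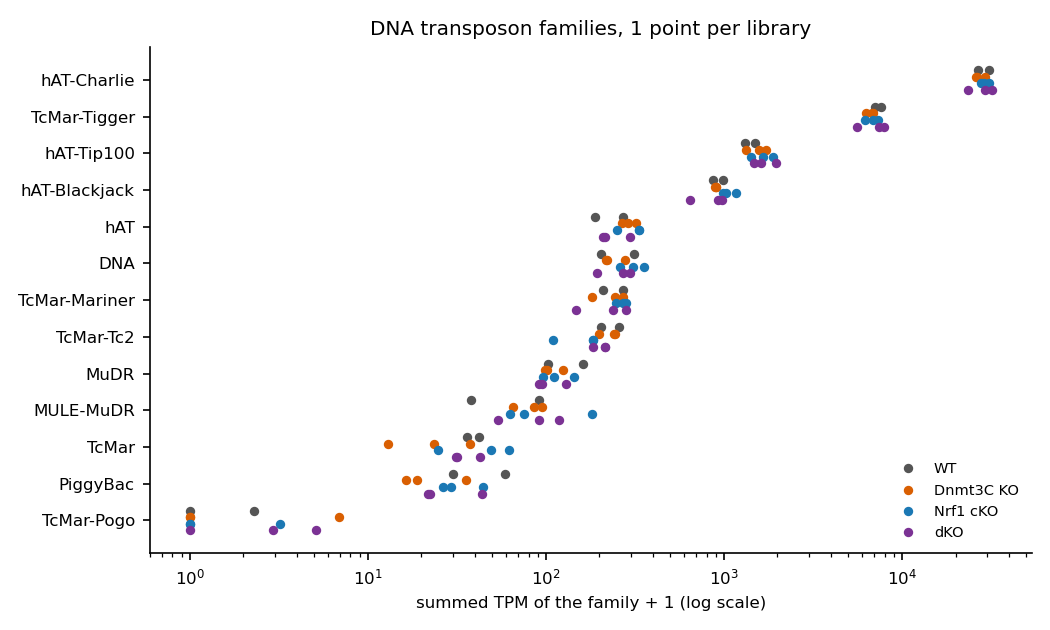
Summed TPM of each DNA transposon family plus 1 on a log axis, 1 point per library, coloured by genotype. hAT-Charlie lies near 28360 TPM and TcMar-Tigger near 6902 TPM on average, and the genotypes overlap in both.

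Copies above 0 TPM lay mostly in introns. By GENCODE M21, 25.1% of all DNA copies in the table lie in an intron on the strand of the gene, but 61.4% of copies above 0 TPM do, and they gave 68.0% to 77.4% of DNA reads per library. Of the sense intron copies 34.9% were above 0 TPM, against 7.91% of antisense intron copies, which are as frequent in the table (24.7%), and 6.32% of intergenic copies. Among the fewer copies in exons, 28.2% of antisense and 11.3% of sense ones were above 0 TPM. Intergenic copies gave 11.5% to 19.5% of DNA reads, antisense intron copies 4.38% to 6.34%, sense exon copies 3.002% to 5.84% and antisense exon copies 1.18% to 6.71%. Of the reads outside genes on their strand, 36.2% to 45.1% came from copies within 5000 bases past the end of a gene on the same strand.

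Sense intron and intergenic reads were lower in all single mutant libraries than in WT, and those of exons overlapped WT. Sense intron copies gave 766.9 and 600.0 RPM for WT, 577.7, 374.3 and 499.5 for Dnmt3C KO, 278.0, 424.2 and 535.1 for Nrf1 cKO and 668.1, 421.9 and 544.8 RPM for dKO. Both WT libraries were above all libraries of the single mutants and the lower of the WT libraries was within the range of dKO. As log2 differences of Nrf1 cKO from WT, sense intron reads were at -0.77, antisense intron at -0.62, antisense exon at -0.74, intergenic at -0.36 and sense exon reads at -0.18. Those of Dnmt3C KO from WT were -0.51, -0.43, -0.17, -0.31 and 0.01, in the same order. Antisense exon copies gave 26.44 and 22.0 RPM in WT and 6.932, 22.78 and 18.88 RPM in Nrf1 cKO, and 34.43, 36.81 and 7.734 RPM in Dnmt3C KO. Left out in turn, a choice made after seeing the data, Nrf1 cKO replicate 1 took the Nrf1 cKO differences to -0.51 for sense introns, -0.22 for antisense exons and 0.01 for sense exons, and the last was -0.32 without Nrf1 cKO replicate 2. The antisense exon difference of Dnmt3C KO ranged from -0.56 to 0.56 over the leave-outs, the latter without its replicate 3. Its sense intron difference was -0.33 without WT replicate 1 and -0.34 without Dnmt3C KO replicate 2, which took the intergenic one to -0.18, and its antisense intron difference was -0.25 without Dnmt3C KO replicate 3. These are descriptions of 2 WT and 3 mutant libraries, for which no permutation test of a pair can reach 0.05.

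**Figure D5:**
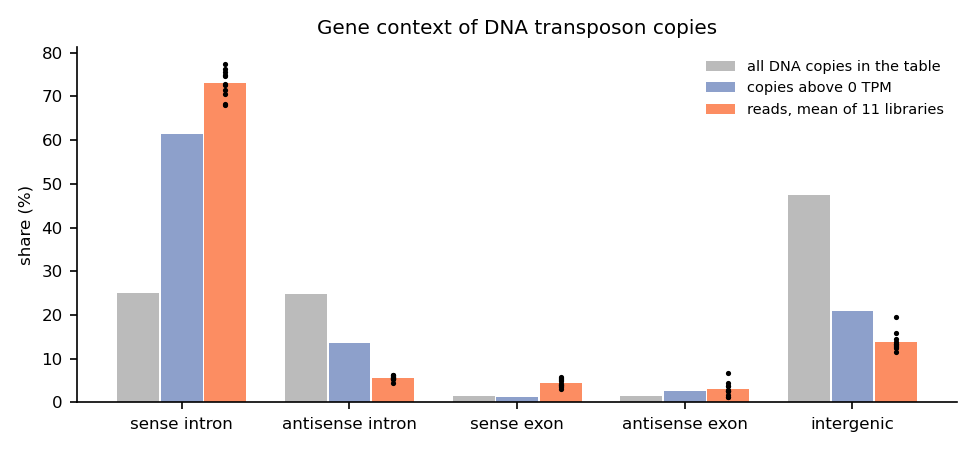
Share (%) of DNA copies in the table, of copies above 0 TPM and of DNA reads by gene context; bars for reads are means over 11 libraries and dots single libraries. Sense introns hold 25.1% of copies but 61.4% of those above 0 TPM and 68.0% to 77.4% of reads.

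The genes that host these copies had medians near 0, as the scaling sets for genes in general. Of the 6362 genes with a member in a sense intron, 5845 were tested in Nrf1 cKO over WT, with a median log2 fold change of 0.02, against 0.01 for the other 14588 genes and -0.62 for DNA subfamilies. In Dnmt3C KO over WT the medians were -0.04 for 5862 host genes and 0.04 for other genes, and in dKO over Nrf1 cKO they were 0.00 and -0.03. Most hosts carry few copies, with 3236 of them holding 1. By DNA reads the leading hosts, ranked after their values were seen, were Akr1cl with 0.86% of all DNA reads, Hsd17b3, an enzyme of testosterone synthesis, with 0.53%, and Wt1os, antisense to the Sertoli cell gene Wt1, with 0.38%.

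Reads per copy were few. The 23249 copies shared 261586 reads over all libraries, with a median of 3 per copy. 10816 copies were above 0 in exactly 1 library and held 6.44% of DNA reads, while the 828 copies above 0 in all 11 libraries held 45.5%. Between 3797 copies (Nrf1 cKO replicate 1) and 8815 copies (WT replicate 1) were above 0 per library. At an equal depth of 13000 DNA reads, 5420 and 4625 copies would be seen for WT, 5280, 4527 and 4527 for Dnmt3C KO, 3711, 4253 and 4501 for Nrf1 cKO and 5278, 4144 and 4757 for dKO, so Nrf1 cKO was below WT also at equal depth and the other mutants overlapped WT.

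No single copy was called. With limma on log2(TPM + 1) over 258372 TE copies, of which 10962 are DNA copies, 0 DNA copies passed an adjusted p under 0.01 for either effect, where 0.00116% of all copies passed for Nrf1 and 0.00503% for Dnmt3C. At an unadjusted p under 0.05, 272 DNA copies were lower and 113 higher for Nrf1 (2.79% and 1.1% of all copies), and 198 lower and 150 higher for Dnmt3C (1.9% and 1.87% of all copies). edgeR on the whole reads recovered from the table called 0 of 718 DNA copies for either effect, where it called 0% of 22610 TE copies for Nrf1 and 0.416% for Dnmt3C with scaling to all counts, or 0% and 0.447% with scaling to TE copies. The smallest limma adjusted p was 0.389 for Nrf1, in MamTip2_dup570, an intronic copy of Echdc1, and 0.066 for Dnmt3C, in MER5A_dup6626, an intronic copy of Dglucy; both were chosen after their values were seen. MER5A_dup6626 (chr12:100894873-100894940) was at 14.8 and 11.7 TPM in WT, 11.7, 21.5 and 9.44 TPM in Nrf1 cKO, 0 in all 3 Dnmt3C KO libraries and 2.696, 0 and 0 TPM in dKO. Over the 23249 members, 2 copies (0.0086%) were above 0 in each library without Dnmt3C and at 0 in each other one, where 0.0285% of the 578629 TE copies of all classes were, and 0 showed the reverse (0.00501% of all). For Nrf1 the counts were 1 (0.0043%, against 0.00294% of all) and 3 (0.0129%, against 0.0162% of all).

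Among the 10 copies with the highest mean TPM, 4 lay in introns, and the others in exons or past the end of a gene. MER58C_dup189 (chr7:119742127-119742243), in an exon of the transcribed processed pseudogene Ppp1ccb, was at 358.2 and 509.1 TPM for WT, 349.2, 432.4 and 477.8 for Dnmt3C KO, 712.3, 468.8 and 507.7 for Nrf1 cKO and 296.1, 522.5 and 1104 TPM for dKO. MER5B_dup2537 (chrX:33508934-33508979), 1924 bases past the end of Gm2223, was at 342.6 and 459.1 TPM in WT and 1009, 487.6 and 530.5 TPM in Nrf1 cKO, with all 3 of the latter above WT. Its Nrf1 effect on the log2(TPM + 1) scale was 0.52 (SE 0.14, limma adjusted p = 0.824). URR1A_dup3358 (chr4:32801707-32801894), 148 bases past the end of Lyrm2 was also higher in all Nrf1 cKO libraries, at 384.2, 315.1 and 327.9 TPM against 173.0 and 222.5 TPM in WT, an Nrf1 effect of 0.46 (SE 0.16, limma adjusted p = 0.824). Relative to all counts both copies overlapped WT: MER5B_dup2537 was at 2.62 and 3.18 RPM in WT and 3.47, 2.46 and 2.92 RPM in Nrf1 cKO, and URR1A_dup3358 at 5.41 and 6.29 RPM in WT and 5.39, 6.49 and 7.37 RPM in Nrf1 cKO. MER5A_dup1232 (chr2:157011337-157011397) lay 4402 bases past Soga1, at 354.3 TPM on average. URR1B_dup7680 (chr8:111137535-111137704), 461 bases past Pdpr and opposite to an exon of 9430091E24Rik, averaged 164.4 TPM.

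Intronic copies among the 10 were URR1A_dup329 in Akr1cl (chr1:65013685-65013894), URR1B_dup8585 in Zfp445 (chr9:122855648-122855715), MER5B_dup2823 in Syap1 (chrX:162864838-162864877) and MER63B_dup691 in Btrc (chr19:45526862-45526901). URR1A_dup329 was at 240.8 ± 52.6 TPM in WT (SD, n = 2), 199.3 ± 33.0 in Dnmt3C KO, 262.7 ± 15.2 in Nrf1 cKO and 219.7 ± 34.4 TPM in dKO (SD, n = 3 each), all overlapping WT. Relative to all counts it was at 7.11 and 8.78 RPM in WT and lower in every mutant library, at 3.61 to 6.49 RPM in Dnmt3C KO, 4.33 to 6.68 in Nrf1 cKO and 5.44 to 6.61 RPM in dKO. Its host Akr1cl was at 537.2 ± 133.8 CPM in WT and 583.3 ± 72.5 CPM in Nrf1 cKO. Zfp445, a zinc finger gene that guards imprinted methylation, was at 161.3 ± 10.1 CPM in WT, 125.6 ± 4.80 in Dnmt3C KO and 124.0 ± 15.3 CPM in Nrf1 cKO, and its copy URR1B_dup8585 at 228.6 ± 16.5, 188.9 ± 76.5 and 219.9 ± 35.9 TPM. Relative to all counts, as the host is, URR1B_dup8585 was at 2.455 and 2.457 RPM in WT, 0.973 to 2.14 in Dnmt3C KO, 1.07 to 2.11 in Nrf1 cKO and 1.198 to 2.34 RPM in dKO, again below WT in every mutant library. MER5B_dup2823, at 1.45 and 1.08 RPM in WT, was lower in Dnmt3C KO (0.66 to 0.99 RPM). It overlapped WT in Nrf1 cKO (0.21 to 1.12 RPM) and dKO (0.68 to 1.41 RPM). MER63B_dup691 overlapped WT in every mutant group. How many of all TE copies lie below WT on this scale was not counted. The limma Dnmt3C and Nrf1 effects of these 4 copies lay between -0.27 and 0.14, with adjusted p of 0.843 or more.

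Genes thought to descend from transposases, or to share their DNA-binding domain, were listed as the coding relatives of these elements. They include Zbed genes and Gtf2ird2 of hAT origin, the centromere protein gene Cenpb, Pogz, Pogk, Jrk and Tigd genes of pogo origin, Pgbd1 and Pgbd5 from piggyBac, Harbi1 and Naif1 from Harbinger, the recombinase genes Rag1 and Rag2, and Thap genes. Of 27 genes, 25 were in the tables and 23 were tested in each fit. edgeR called 0 of them at an adjusted p under 0.01 in all 7 fits, beside a background of 0% to 0.00443% of all features. At an unadjusted p under 0.05, 3 were higher and 1 lower in the Nrf1 effect, where 3.55% and 4.32% of all features were, and 1 was higher and 0 lower in the Dnmt3C effect (1.9% and 0.996% of all features). Their median log2 fold change was 0.09 in Nrf1 cKO over WT and 0.02 in Dnmt3C KO over WT. Cenpb was at 154.8 ± 12.0 CPM in WT (SD, n = 2) and 182.7 ± 13.1 CPM in Nrf1 cKO (SD, n = 3). Zbed5, with the smallest p in the Nrf1 effect (edgeR adjusted p = 0.535), was at 26.5 ± 3.14 CPM in WT, 29.4 ± 1.68 in Dnmt3C KO, 20.4 ± 2.21 in Nrf1 cKO and 25.1 ± 4.07 CPM in dKO.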

How the data were processed

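Whole testes were sequenced as stranded poly-A libraries. The authors aligned reads to GRCm38 (GENCODE M25) with STAR 2.7.3a, allowing multimapping reads. The deposited counts per gene and TE subfamily were made by the authors with TEtranscripts, and the deposited TPM per TE copy with TElocal, both strand-specific and in the mode that distributes multimapping reads, so reads of near-identical copies can be split among them. The authors left out 1 replicate per genotype for RNA quality. Deposited columns of the authors' DESeq2 1.44.0 comparisons, which hold fold changes and p-values, were not used.

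The count tables were joined by feature, and 0 shared values differed between tables. edgeR 4.0.16 (R 4.3.3) quasi-likelihood fits used filterByExpr, TMM and Benjamini-Hochberg adjustment over all genes and TE subfamilies, with a threshold of 0.01. CPM were scaled by TMM. The Nrf1 and Dnmt3C effects are the terms of an additive model over 11 libraries. TE copies with at least 1 TPM in at least 2 libraries were tested with limma 3.58.1 on log2(TPM + 1), a scale that understates changes of low copies. In every library 100% of TPM values above 0 came out as whole reads within 0.01, which gave reads per copy. Shares, ratios and family sums were tested by a two-sided exact permutation within backgrounds (200 regroupings), adjusted over 10 or 26 tests. Gene contexts and sequences came from GENCODE M21 (GRCm38), with bedtools 2.31.1. The scripts were tested on simulated data. The 14 subfamilies of class DNA? were left out.

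The members and lists were chosen with earlier results of these data known. Named were the 10 subfamilies and 10 copies highest on average, the 3 subfamilies of smallest p for each effect, any called member, every family, and the listed genes. Alternatives were DESeq2 1.42.0, other scalings, filters, pseudocounts and thresholds, a replicate block, leaving out each library in turn and, chosen after seeing the data, edgeR on the recovered reads, leave-outs of the reads by gene context and levels of the named copies relative to all counts. DNA counts of 14027 to 36117 per library limit precision for rare members.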

Additional observations from a re-analysis of the deposited data

Results flagged for a closer look

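Charlie1a, a hAT-Charlie subfamily, was lower in every Dnmt3C KO library than in both WT libraries but higher in every dKO library than in all Nrf1 cKO libraries. On the log2(CPM + 1) scale the Dnmt3C difference was -0.3632 where Nrf1 was intact and 0.6395 where it was deleted. The class as a whole had medians of the same signs, -0.44 in Dnmt3C KO over WT and 0.35 in dKO over Nrf1 cKO, and so had LINE, SINE and LTR subfamilies. MER63B_dup691, the intronic copy in Btrc, had the opposite order on another scale, relative to TE copies: it was higher in every Dnmt3C KO library than in WT, by 0.3232 on the log2(TPM + 1) scale, and lower in every dKO library than in Nrf1 cKO, by a difference of -0.6843. Relative to all counts of a library, its groups overlapped in both pairs, with log2 differences of -0.03 and -0.25. In neither case was the difference between the 2 backgrounds tested.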

How the results depend on the processing

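Among the values recomputed under alternatives, 14 shares or ratios changed sign, each at an adjusted p of 0.8 or more by exact permutation, and 4 other values moved; the cause was not tested. Scaled to the TE total, the median log2 fold change of DNA subfamilies was -0.131 in Nrf1 cKO over WT and -0.0222 in dKO over Nrf1 cKO. With single libraries left out, the untested Dnmt3C median ranged from -0.13 to 0.134 and that of dKO over Dnmt3C KO from -0.004 to 0.337, so both changed sign. The count of DNA copies called for the Dnmt3C effect ranged from 0 to 1. The copy was FordPrefect_dup264, without Nrf1 cKO replicate 2 or without dKO replicate 1. Of TE copies of all classes, 20 of 246000 and 16 of 239328 were called in those fits, in that order. Over all limma fits of this effect the calls ran from 0 of 578629 to 26 of 258372. For the DNA share of all counts, the Dnmt3C effect was 0.0481 when labels were permuted without regard to background and ranged from -0.132 to 0.0671 over the leave-outs. The Nrf1 effect on the share of TE counts was 0.0296 with summed TPM and ranged from -0.103 to 0.0338. On the DNA to LINE ratio, summed TPM gave 0.0162 for Nrf1 and 0.00085 for Dnmt3C, and the leave-outs gave -0.154 to 0.0095 for Dnmt3C. The Nrf1 effect on the share of all counts ranged from -0.344 to -0.145, and on the DNA to LTR ratio the leave-outs gave -0.202 to -0.0892 for Nrf1 and -0.173 to -0.0559 for Dnmt3C. On the DNA to SINE ratio the leave-outs gave -0.0213 to 0.146 for Nrf1 and -0.17 to -0.0027 for Dnmt3C, the latter without dKO replicate 2. On the DNA to LINE ratio they gave -0.169 (without WT replicate 2) to -0.0053 (without WT replicate 1) for Nrf1, and on the share of TE counts -0.156 (without WT replicate 2) to -0.0195 (without dKO replicate 2) for Dnmt3C. By the numbers in the sample titles, which differ from the deposited column names for 2 libraries, same-numbered libraries of different genotypes had correlations of their deviations from -0.233 to 0.221, so the numbers were not taken as pairs. With the replicate block, the log2 difference in the DNA share of all counts was -0.344 for Nrf1 and -0.0171 for Dnmt3C (replicate 3 of the mutant compared with WT has no partner and drops out), and 0 DNA subfamilies and 0 DNA copies were called. Under that block, limma called 3 of 258372 TE copies of all classes for Nrf1 and 26 of 258372 for Dnmt3C. Calls among all genes and TE subfamilies were not counted under it.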
